A study of Arabidopsis thaliana with 64 samples.

Results

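The loci described here are 10 genes of Arabidopsis chromosome 4, of 32833 loci counted: AT4G19490 (VPS54), AT4G19500, AT4G19510, AT4G19820, AT4G20480, AT4G20690, AT4G22300 (SOBER1), AT4G24420, AT4G27050 and AT4G27070 (TSB2). They were selected on their levels in the elf4-2 mutant against wild-type Col-0, so the difference between elf4-2 and Col-0 is given as a description with no test. The question put to them was which other lines share the elf4-2 level, and in particular whether the cross elf4-2 X ELF3-ox does. In elf4-2, 7 of the 10 loci were lower than in Col-0 and 3 were higher. Neither library of elf4-2 X ELF3-ox lay on the elf4-2 side, nearer to elf4-2 than to Col-0 on the log scale, for any of the 10 loci. Some libraries of other lines did lie on that side at AT4G19510, AT4G19820, AT4G20690, SOBER1 and TSB2.

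RNA 3' ends were counted in 38 libraries of pooled seedlings of 16 lines, with 3 libraries from 12 °C, 15 from 22 °C and 20 from 27 °C. All lines are labelled as cultivar Col-0 and were grown on plates for 10 days in short days of 8 h light and 16 h dark. The elf4-2 mutant had 1 library at 22 °C and 1 at 27 °C, as did the cross elf4-2 X ELF3-ox, which joins that mutant to an overexpressor of ELF3. ELF3-ox alone had 1 library at each of the 3 temperatures, and Col-0 had 1 at 22 °C and 2 at 27 °C. The 12 other lines were the mutant elf3-1, the cross elf3-1 X ELF4-ox, ELF4-ox, BdELF3-ox, StELF3-ox, ELF3pro::BdELF3, and 6 lines carrying ELF3pro::ELF3 with Q0 (#2 and #15), Q7 (#6 and #17) or Q21 (#7 and #23). The lesion of elf4-2, the accession in which it was isolated, the promoters of the overexpressors, the zygosity of the crosses and the harvest times of the RNA are missing from the labels, so the elf4-2 allele and other DNA differences that the line may carry cannot be told apart. Sample titles carry a number prefix, 177 or 178 in elf4-2, 181 or 184 in Col-0 and 177 in the cross. ELF3-ox had 177 at 22 and 27 °C and 184 at 12 °C. As elf4-2 and Col-0 share no prefix, a fit adjusts their difference for it only through other lines, and folds of mean CPM are not adjusted. Nothing in the labels says that libraries of a line came from separate experiments, so p-values measure the spread between these libraries.

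ELF4 and ELF3 are members of the evening complex, a repressor of the plant circadian clock that also holds LUX and that restrains growth genes at night. The genes with a symbol among the 10 act elsewhere. VPS54 is a subunit of the GARP complex, which tethers vesicles returning from endosomes to the Golgi. SOBER1 is named as a suppressor of the resistance elicited by the bacterial effector AvrBsT. TSB2 is a beta subunit of tryptophan synthase, the enzyme that makes tryptophan from indole and serine, and it has a close relative in TSB1. The other 7 loci have no symbol in the gene table and are described by their locus tags alone.

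Gene counts per library ranged from 4381010 to 25649275, and the share of reads without a unique alignment from 2.64 to 35.1%. Levels are given in CPM, the count scaled to library size with TMM factors. The ELF4 gene itself, outside chromosome 4, had 32.2 CPM at 22 °C and 38.1 CPM at 27 °C in elf4-2, against 67.2 CPM at 22 °C and 67.5 and 60.4 CPM at 27 °C in Col-0. The cross had 29.5 and 35.4 CPM of ELF4 at 22 and 27 °C, against 51.4, 63.2 and 83.4 CPM in ELF3-ox at 12, 22 and 27 °C. These 4 libraries of elf4-2 and the cross had the lowest ELF4 levels of the 38, and the next lowest was 40.6 CPM in StELF3-ox at 12 °C. Because reads come from the 3' end and the lesion is not given, ELF4 reads check the labels only in part. ELF3 had 9.38, 37.6 and 35.2 CPM in ELF3-ox at 12, 22 and 27 °C and 37.5 and 41.9 CPM in the cross. Col-0 had 29.8 CPM of ELF3 at 22 °C and 22.4 and 17.4 CPM at 27 °C. Fitted against Col-0 with edgeR, the log2 differences of ELF3 were -0.43 ± 0.34 (SE) in ELF3-ox and -0.24 ± 0.38 in the cross. At 22 and 27 °C the ELF3 levels of both lines lay above every Col-0 library, but the fitted differences, adjusted for title prefix, were negative. ELF3 reads therefore did not clearly mark these lines as overexpressors, and the cause was not tested. In whole seedlings fewer expressing cells and less RNA per cell cannot be told apart. The 7 root marker genes summed to 171 and 114 CPM in elf4-2, 119 and 110 CPM in the cross, 59.5 to 103 CPM in ELF3-ox and 63.4 to 81.3 CPM in Col-0, with no marker at 0 in these libraries. Their part in the elf4-2 levels was not tested. The library BdELF3-ox 27C replicate 2 and the single ELF3pro::BdELF3 library stood apart, with root marker sums of 0.533 and 1.56 CPM where every other library had at least 59.3 CPM.

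The selecting contrast was fitted over 38 libraries with edgeR, where 6 of 19587 loci tested were higher in elf4-2 (0.0306%) and 10 were lower (0.0511%) at an adjusted p under 0.05. All 10 loci were among them, and 13 of the 16 loci called, the 10 included, lay on chromosome 4. Of the loci tested, 587 lay from AT4G19490 to AT4G27070, 2404 on the rest of chromosome 4 and 16472 on the other nuclear chromosomes. The member nearest the threshold was AT4G19820, with an adjusted p of 0.0415 by edgeR. Also inside it on chromosome 4, but not among the 10, stood AT4G22390 at 0.0154, AT4G28085 at 0.0259 and ECIP1 at 0.0435 in that edgeR fit. AT4G22390 and AT4G28085 ranked ahead of the members AT4G20480, with an edgeR adjusted p of 0.0279, and AT4G19820. Just outside were KAI2 at 0.0610 and PCAP1 at 0.0779. These values chose the loci and are not a test of them.

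The 3 neighbouring loci at the start of the set were low together in elf4-2. VPS54 had 2.28 CPM at 22 °C and 2.27 CPM at 27 °C in elf4-2, from 52 and 35 counts, against 13.1 CPM at 22 °C and 13.3 and 13.1 CPM at 27 °C in Col-0. The lowest of the 36 libraries of other lines was ELF3-ox at 12 °C with 7.40 CPM, their median was 12.9 CPM and their highest 16.1 CPM, so elf4-2 did not overlap them. The next locus, AT4G19500, had 0.308 CPM at 22 °C and 0.583 CPM at 27 °C in elf4-2, from 7 and 9 counts, against 16.6, 14.6 and 24.2 CPM in Col-0. The other lines reached from 11.2 to 25.8 CPM with a median of 16.4 CPM, a wide gap from both elf4-2 libraries. AT4G19510, next again, had 2.06 and 1.94 CPM in elf4-2, against 10.4, 15.8 and 11.3 CPM in Col-0, and 4.36 to 17.1 CPM over the 36 other libraries. Its 3 lowest other libraries were those grown at 12 °C, the only ones nearer to elf4-2 than to Col-0 on the log scale. Mean levels in elf4-2 were 5.79-fold, 41.5-fold and 6.24-fold lower than in Col-0 for VPS54, AT4G19500 and AT4G19510.

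The 4 further loci that were low in elf4-2 were SOBER1, AT4G20480, AT4G19820 and AT4G20690. SOBER1 had 1.41 and 1.49 CPM in elf4-2, against 7.49, 7.11 and 6.07 CPM in Col-0. BdELF3-ox at 12 °C, with 2.43 CPM, came nearest to elf4-2 and was nearer to it than to Col-0 on the log scale. The median of the 36 libraries was 8.04 CPM and the highest 11.4 CPM, and the mean in elf4-2 was 4.76-fold lower than in Col-0. AT4G20480 had 0.176 and 0.259 CPM in elf4-2, from 4 counts each, against 12.2, 2.49 and 14.4 CPM in Col-0. Col-0 was itself the lowest of the other lines at AT4G20480, since the 36 libraries had a median of 24.1 CPM and a highest value of 40.3 CPM, and a library of ELF3pro::ELF3-Q0 #15 at 27 °C was low as well at 2.62 CPM. AT4G19820 had 0.220 and 0.583 CPM in elf4-2, from 5 and 9 counts, against 0.999, 3.38 and 4.34 CPM in Col-0, a mean 7.25-fold lower. The other libraries at AT4G19820 spanned 0 to 4.68 CPM, and ELF3pro::BdELF3, the shallowest library and one of those poor in root markers, was at 0. Libraries of ELF3pro::ELF3-Q7 #17, Q21 #23 and Q0 #2 had 0.686, 1.02 and 1.06 CPM. These and the Col-0 library at 0.999 CPM were also nearer to the elf4-2 mean than to the Col-0 mean on the log scale. AT4G20690 had no count in either elf4-2 library, against 3.12, 1.95 and 1.31 CPM in Col-0. With 3 counts over both elf4-2 libraries as the floor, 0.0785 CPM, AT4G20690 was at least 27.1-fold lower in elf4-2. Here too ELF3pro::BdELF3 was at 0, the median of the 36 other libraries was 2.16 CPM and elf3-1 at 27 °C was highest with 9.20 CPM. The libraries grown at 12 °C had 0.135 CPM in BdELF3-ox, 0.195 CPM in StELF3-ox and 0.494 CPM in ELF3-ox. They too, and a library of BdELF3-ox grown at 27 °C, were nearer to elf4-2 than to Col-0 on the log scale.

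The 3 higher loci were separated from every other library. AT4G24420 had 23.4 CPM at 22 °C and 40.8 CPM at 27 °C in elf4-2, from 533 and 631 counts, against 0.250 CPM at 22 °C and 0.533 and 0.837 CPM at 27 °C in Col-0. Its mean was 59.5-fold higher in elf4-2 than in Col-0, and the 36 other libraries had a median of 0.923 CPM. The highest of those 36 was elf4-2 X ELF3-ox at 27 °C, with 3.18 CPM, and the cross at 22 °C had 0.716 CPM. Fitted against Col-0, every other line had a positive log2 difference at AT4G24420, between 0.26 and 1.77, beside 5.97 ± 0.54 (SE) in elf4-2; these differences share the 3 Col-0 libraries. AT4G27050 had 27.1 and 28.2 CPM in elf4-2, against 9.37, 10.5 and 7.54 CPM in Col-0, and 6.07 to 10.8 CPM over the 36 other libraries. TSB2 had 22.8 and 23.4 CPM in elf4-2, against 2.50, 3.55 and 3.82 CPM in Col-0. The other libraries had a median of 3.37 CPM of TSB2 and reached 9.07 CPM in BdELF3-ox 27C replicate 2, one of the libraries poor in root markers. That library was slightly nearer to elf4-2 than to Col-0 on the log scale. Means in elf4-2 were 3.02-fold higher than in Col-0 for AT4G27050 and 7.01-fold higher for TSB2. TSB1, the relative of TSB2 on chromosome 5, had 49.6 and 54.0 CPM in elf4-2 and 52.7, 72.1 and 57.7 CPM in Col-0, which overlap; the labels do not say how reads shared by these relatives were counted.

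**Figure D1:**
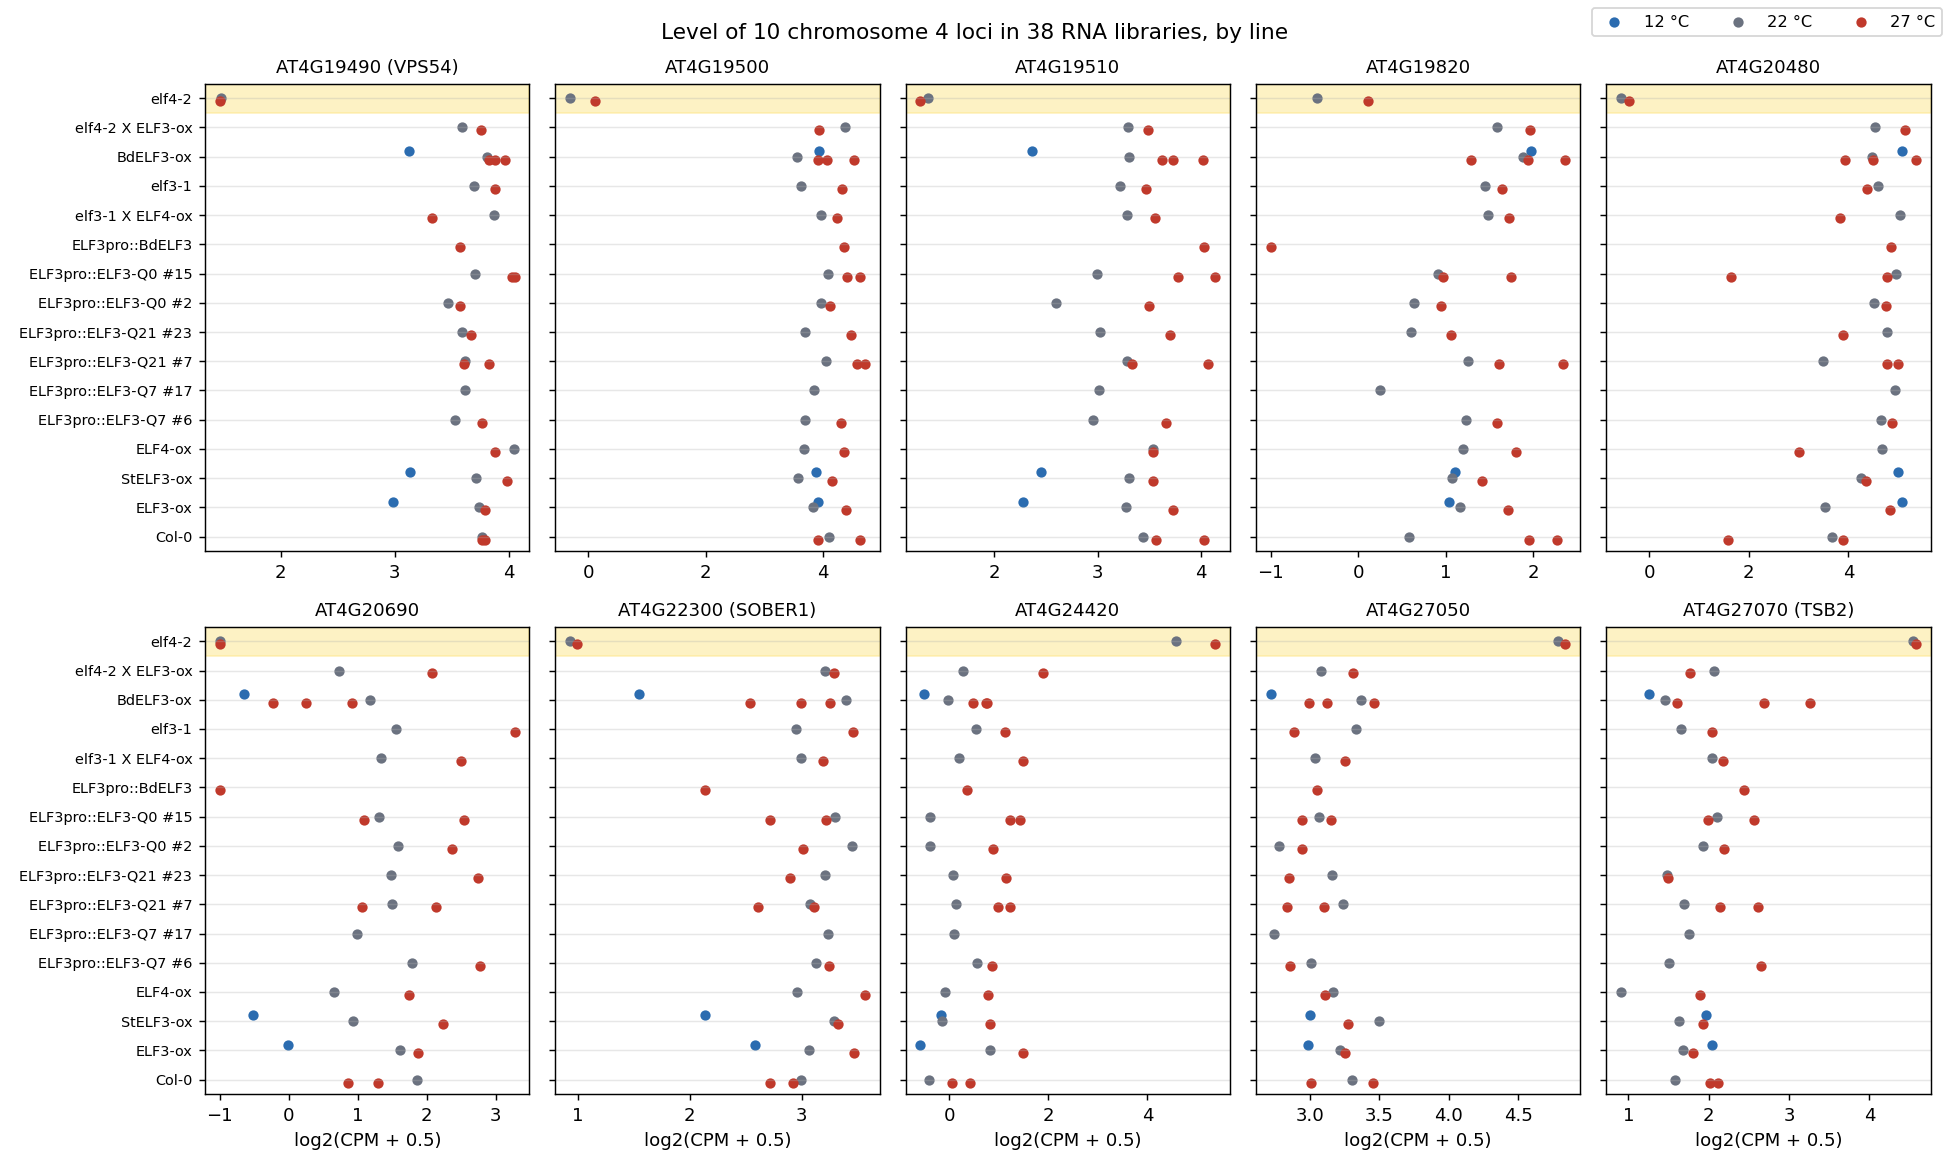
Levels of the 10 loci as log2(CPM + 0.5) on the horizontal axes, with the 16 lines down the page and each point 1 of 38 libraries, coloured by growth temperature. The shaded row is elf4-2, whose points stand to the left of the other lines in 7 loci and to the right in 3, with ELF3pro::BdELF3 at 0 for AT4G19820 and AT4G20690.

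Across lines, both elf4-2 libraries lay outside all 36 others at 8 of the 10 loci. Over all 19587 loci tested, both lay below the 36 others at 0.158% and above them at 0.199%; the selection of the loci favours such a pattern. The exceptions were AT4G19820 and AT4G20690, because of the ELF3pro::BdELF3 library at 0. Without the 2 libraries poor in root markers the count was 10 of 10. For the cross, both libraries lay below all 36 others at 0.097% of loci tested and above them at 0.0255%, and none of the 10 loci was among these.

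The cross against ELF3-ox was the comparison that used neither elf4-2 nor Col-0, and it was fitted over the 33 other libraries with edgeR's quasi-likelihood test. None of the 10 loci was called, with an adjusted p of 1.00 for each. Over all 19501 loci tested, 4 were called higher in the cross (0.0205%) and 1 lower (0.00513%), with 825 at an unadjusted p under 0.05. DESeq2 on the same libraries called 29 loci and none of the 10. VPS54 had 11.5 and 13.03 CPM in the cross at 22 and 27 °C, against 7.40, 12.8 and 13.3 CPM in ELF3-ox at 12, 22 and 27 °C. Its log2 difference was -0.08 ± 0.16 (SE), with a 95% interval of -0.42 to 0.26. AT4G19500 had 20.2 and 14.8 CPM in the cross, against 14.6, 13.7 and 20.5 CPM in ELF3-ox, a log2 difference of 0.09 with an interval of -0.36 to 0.54. Both groups overlapped at each of these loci, and both intervals leave out the elf4-2 differences from Col-0, -2.64 ± 0.21 for VPS54 and -5.44 ± 0.34 for AT4G19500. The differences from Col-0 chose the loci and come from another fit, over 38 libraries, so they serve only as a scale.

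The remaining low loci of elf4-2 gave similar values in the cross. AT4G19510 had 9.31 and 10.7 CPM in the cross, against 4.36, 9.19 and 12.8 CPM in ELF3-ox, with an interval of -0.59 to 0.46 on the log2 scale. SOBER1 had 8.77 and 9.26 CPM in the cross, against 5.51, 7.86 and 10.6 CPM in ELF3-ox, with an interval of -0.72 to 0.36. AT4G20480, AT4G19820 and AT4G20690 were less precise, with log2 differences of 0.51 (interval -0.72 to 1.74), 0.54 (-0.08 to 1.16) and -0.51 (-1.50 to 0.48). AT4G20690 was counted in both libraries of the cross, at 1.16 and 3.72 CPM, where elf4-2 had no count.

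At the loci that were high in elf4-2, the levels in the cross overlapped those in ELF3-ox. AT4G24420 had 0.716 and 3.18 CPM in the cross, against 0.165, 1.28 and 2.31 CPM in ELF3-ox, with a log2 difference of 0.08 and an interval of -0.93 to 1.09. AT4G27050 had 7.97 and 9.44 CPM in the cross, against 7.40, 8.78 and 9.01 CPM in ELF3-ox, with an interval of -0.44 to 0.37. TSB2 had 3.67 and 2.89 CPM in the cross, against 3.62, 2.71 and 3.00 CPM in ELF3-ox, with an interval of -0.94 to 1.09. An interval of this width does not show that the cross and ELF3-ox are equal, but it leaves out differences as large as those between elf4-2 and Col-0 for each of these loci. The latter differences chose the loci and may be enlarged by that choice, so they serve as a scale and not as a test.

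ELF4 and the 10 loci sorted the lines differently. In the same test ELF4 was lower in the cross than in ELF3-ox by a log2 difference of -1.11 ± 0.24 (interval -1.61 to -0.61), which was not called over all loci (edgeR adjusted p = 0.200); the adjusted p was 0.0126 with DESeq2 and 0.0208 by edgeR within title prefix 177, and 0.0538 to 1.00 in the 10 other alternatives. ELF3 differed by 0.18 ± 0.31. Of the genes called, LUX, the DNA-binding partner of ELF3 and ELF4 listed as PCL1, was higher in the cross by 2.34 on the log2 scale, and AT1G56300 was lower by a log2 difference of -1.42, as it was in elf4-2 against Col-0. None of the 5 genes called lay on chromosome 4. The number called was 0 without elf4-2 X ELF3-ox at 22 °C, without ELF3-ox at 12 °C or without ELF3-ox at 27 °C, and 1 without ELF3-ox at 22 °C.

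**Figure D2:**
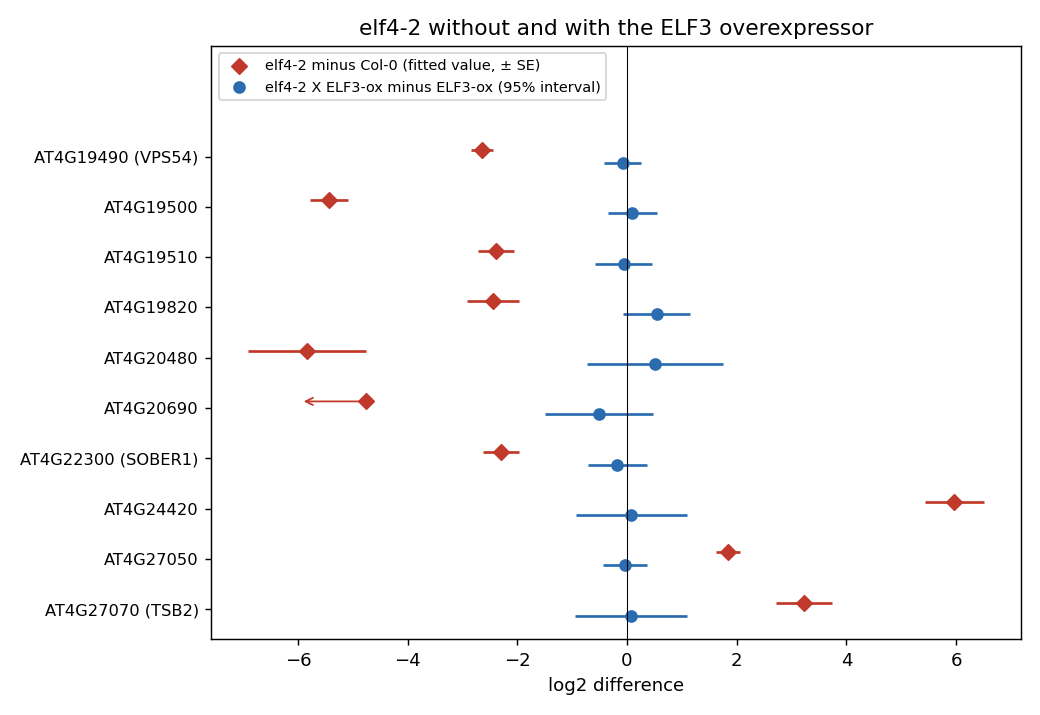
Fitted log2 differences of the 10 loci, with elf4-2 minus Col-0 as diamonds with bars of 1 SE and elf4-2 X ELF3-ox minus ELF3-ox as circles with 95% intervals. The diamonds lie far from 0 on either side, the arrow marks AT4G20690 as a bound, and the circles lie between -0.51 and 0.54.

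**Figure D3:**
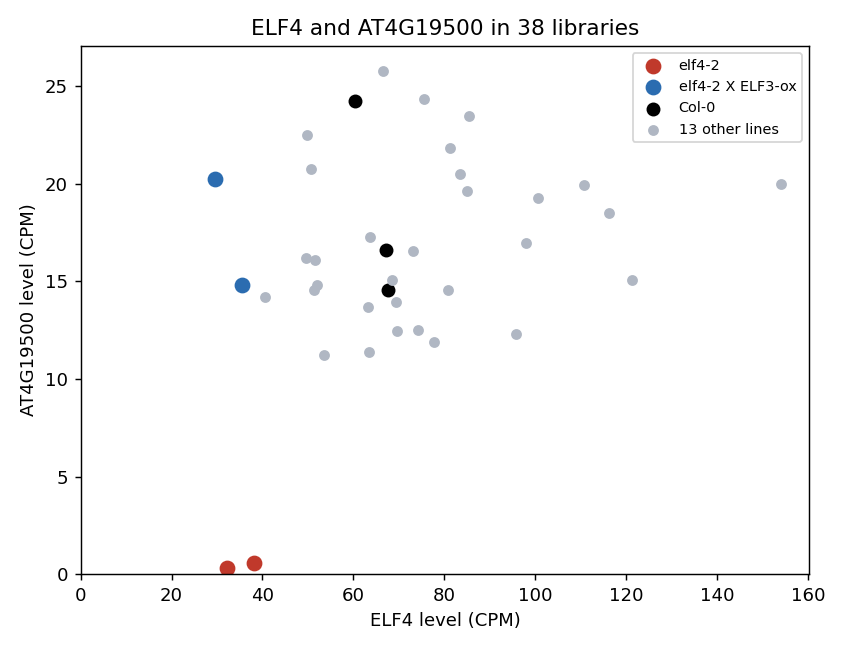
ELF4 level against AT4G19500 level, both in CPM, in each of 38 libraries. The elf4-2 and the cross libraries are the lowest in ELF4, between 29.5 and 38.1 CPM, but AT4G19500 is at 0.308 and 0.583 CPM in elf4-2 and at 20.2 and 14.8 CPM in the cross.

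Among the 13 lines other than elf4-2, the cross and Col-0, 1 of the 10 loci varied. AT4G19820 was called in an edgeR F test over 31 libraries (adjusted p = 0.0341), where 1.49% of 19466 loci were called. Its line means ran from 0 CPM in ELF3pro::BdELF3, a single library, to 3.32 CPM in BdELF3-ox. The other 9 loci had adjusted p-values from 0.207 for AT4G20690 to 0.964 for TSB2 in that edgeR test.

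Growth temperature, which the selection did not use, was compared over all 38 libraries, 20 at 27 °C and 15 at 22 °C, with line and title number prefix in the fit. Of the 10 loci, 5 rose at 27 °C and none fell, while over all loci tested 17.7% rose and 16.7% fell. The median log2 difference was 0.42 over the 10 loci and 0.01 over all loci tested. AT4G24420 had a median of 1.42 CPM over the 27 °C libraries (0.533 to 3.18 CPM without elf4-2) and 0.572 CPM over the 22 °C libraries (0.250 to 1.28 CPM without elf4-2). At the same temperatures AT4G20690 had medians of 3.01 CPM (0 to 9.20 CPM without elf4-2) and 2.04 CPM (1.08 to 3.12 CPM without elf4-2). The 2 temperatures overlapped at both loci. AT4G24420 rose most, by 1.38 ± 0.18 on the log2 scale (edgeR adjusted p = 1.04e-05), followed by AT4G20690 at 0.97 ± 0.21 (0.00136). The changes of AT4G19820, AT4G19510 and AT4G19500 were smaller, 0.48 ± 0.14 (0.0121), 0.47 ± 0.10 (0.000971) and 0.39 ± 0.09 (0.00198). AT4G19820 had an adjusted p of 0.0505 by edgeR without the elf4-2 and Col-0 libraries, with a log2 difference of 0.37. TSB2 differed by 0.44 ± 0.18 and missed the threshold (edgeR adjusted p = 0.0587), but passed it without the title prefix term, at 0.50 (0.0279). VPS54, SOBER1, AT4G27050 and AT4G20480 had log2 differences of 0.08 ± 0.06, 0.08 ± 0.10, -0.04 ± 0.07 and -0.42 ± 0.26, none past the threshold. VPS54 and AT4G19500 adjoin, and their intervals at 27 °C against 22 °C, -0.05 to 0.21 and 0.21 to 0.58, barely met; the difference between them was not tested.

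**Figure D4:**
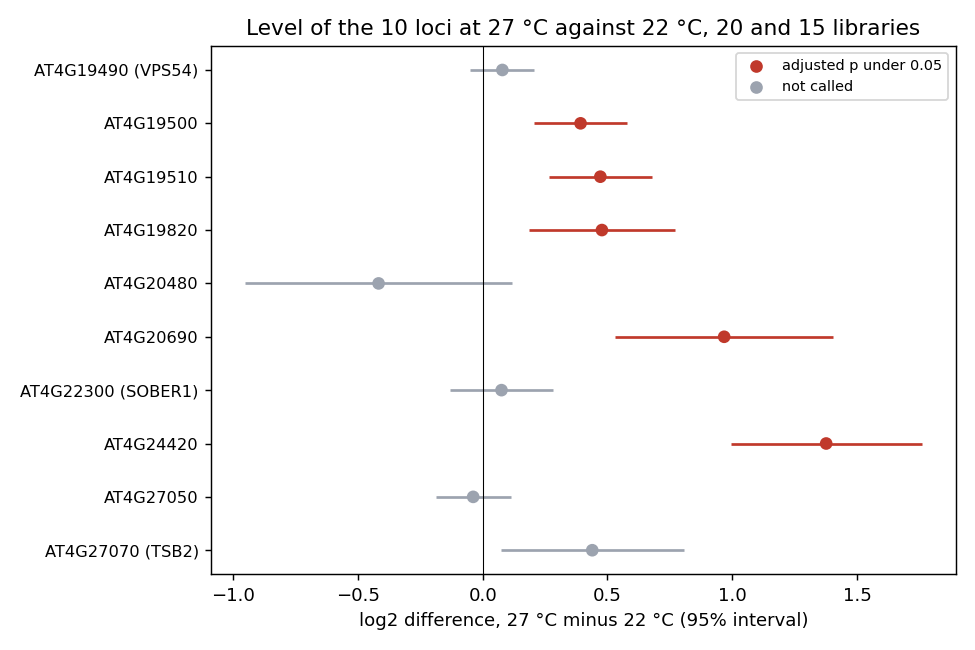
Log2 difference between 27 °C and 22 °C of each of the 10 loci, with 95% intervals, over 20 and 15 libraries. The 5 loci in red passed an adjusted p under 0.05, from 0.39 in AT4G19500 to 1.38 in AT4G24420, and the grey ones did not.

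On the chromosome, VPS54, AT4G19500 and AT4G19510 are consecutive loci by locus tag, and AT4G27050 and TSB2 are separated by 1 locus, TOR1. TOR1, a microtubule-associated protein also named SPIRAL 2, had 9.49 and 13.5 CPM in elf4-2 and 10.6, 9.59 and 14.3 CPM in Col-0, so the levels overlapped between a pair of loci that were high. The gaps between the remaining neighbours among the 10 held 29, 73, 22, 189, 246 and 301 loci. In all, 871 of the 4921 chromosome 4 loci lie from AT4G19490 to AT4G27070, and 587 of them were tested. Of the 71 loci within 5 places of one of the 10, 39 were tested and 0 were called in the cross against ELF3-ox. In that comparison 0.0205% of all loci tested were called higher and 0.00513% lower, so a count of 0 says little about these neighbours.

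A search chosen after the values were seen listed the loci at which both libraries of a line lay outside all 36 others. In elf4-2 this held for 27 of 587 loci in the interval, 15 below and 12 above, of which 19 were not among the 10. It held for 7 of 2404 loci on the rest of chromosome 4 and for 36 of 16472 on the other chromosomes. The 7 other lines with 2 libraries each had 0 to 5 such loci in the interval, and the cross had 0. Of these 19 loci, AT4G22390 was at 0 in both elf4-2 libraries, against a mean of 1.09 CPM in Col-0. ECIP1, a protein that interacts with the ethylene signalling protein EIN2, averaged 59.6 CPM in elf4-2 and 29.9 CPM in Col-0, with 27.7 CPM in the cross. AT4G22235, AT4G22285 and AT4G22280, close to SOBER1, were higher in elf4-2, at means of 34.4, 22.2 and 1.99 CPM against 11.2, 9.05 and 0.550 CPM in Col-0, so high and low loci stood side by side. Because the members were among the loci searched, these counts describe the interval and test nothing.

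**Figure D5:**
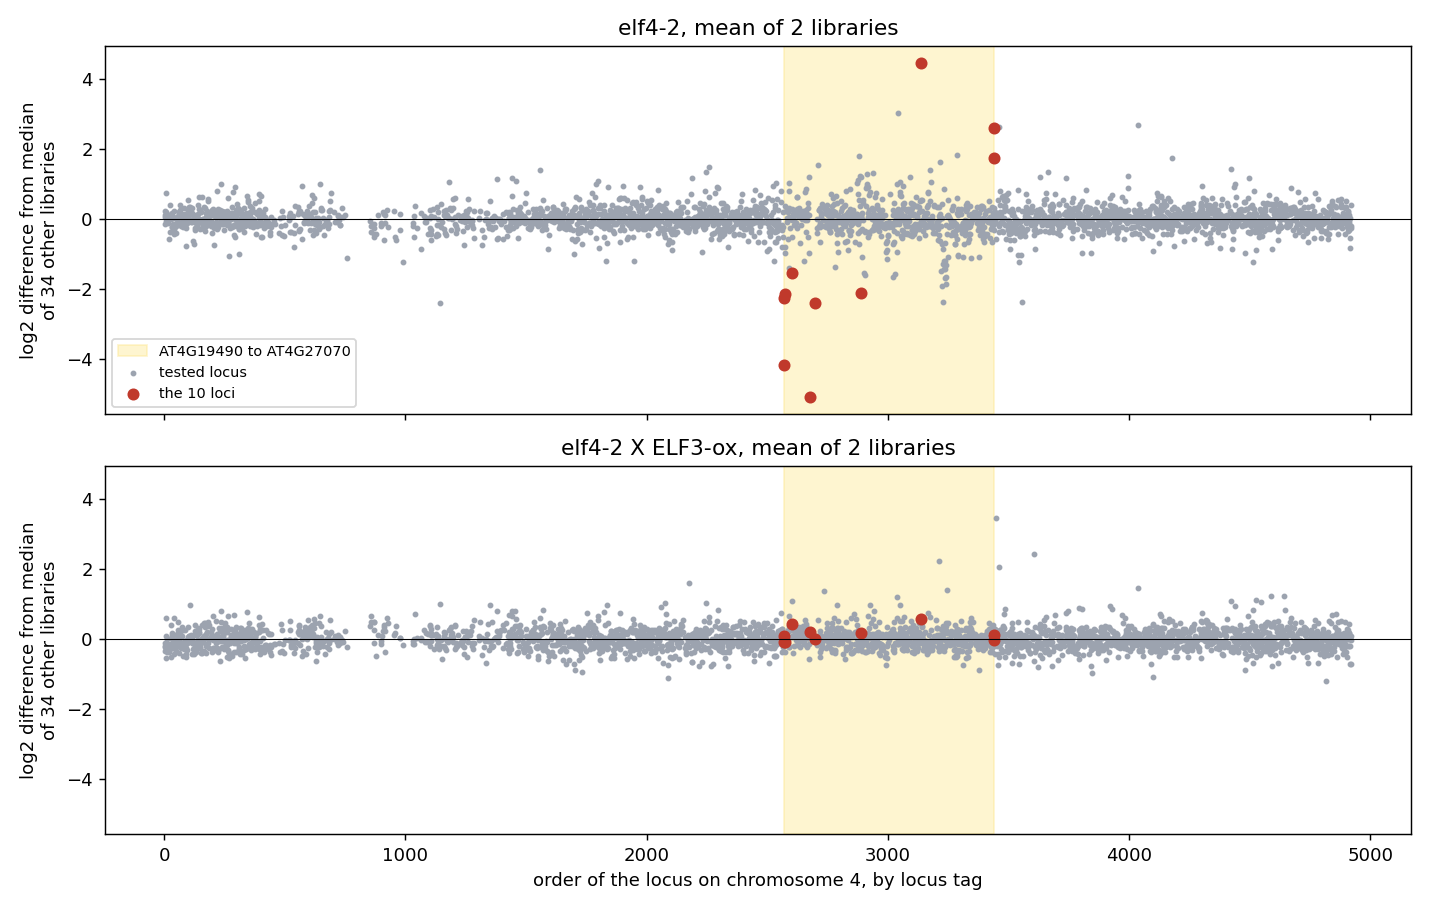
Log2 difference, on the log2(CPM + 0.5) scale, between the mean of 2 libraries and the median of 34 other libraries for each tested locus of chromosome 4 in locus tag order, for elf4-2 above and elf4-2 X ELF3-ox below. The red points are the 10 loci, which spread from about the lowest to the highest values of the shaded interval in elf4-2 and lie near 0 in the cross.

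Genes that share a pathway with the named loci, or lie near AT4G19820, were also followed. The lists were tryptophan synthesis (9 of 9 genes tested), the GARP complex (3 of 3), disease resistance signalling (8 of 8), chitinase-like genes near AT4G19820 (2 of 8), root markers (7 of 7) and ELF3 with ELF4, and 0 genes of any list were called in the cross against ELF3-ox. Over all loci tested there, 0.0205% were called higher and 0.00513% lower, so 0 calls say little about the lists. Within title prefix 177 alone, AGP30 of the root markers was called higher in the cross, by 1.73 on the log2 scale. AGP30 was also among the loci called higher in elf4-2 than in Col-0, by 3.86 ± 0.76 (SE). At 27 °C against 22 °C, PAI1 and PAI2 of tryptophan synthesis fell by 0.47 ± 0.13 and 0.77 ± 0.26 on the log2 scale, and the other 7 genes of that list were not called; PAI1 and PAI2 are near-identical copies whose reads may not be told apart, and PAI2 had an edgeR adjusted p of 0.0922 without the elf4-2 and Col-0 libraries. No GARP gene was called. ADR1-L1, a helper of immune receptors, and AT5G66900 rose by 0.35 ± 0.08 and 0.30 ± 0.08, and 6 of the list were not called. AT4G19720 of the chitinase-like list fell by 0.95 ± 0.28, with an edgeR adjusted p of 0.0654 without the title prefix term, and SHV2 and AGP30 of the root markers fell by 1.24 ± 0.29 and 1.08 ± 0.26. These calls describe single genes and not the lists, as 17.7% of all loci tested rose and 16.7% fell at 27 °C.

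Over the 33 libraries without elf4-2 and Col-0, the 45 pairs among the 10 had Pearson r of log2(CPM + 1) from -0.38 to 0.71 with a median of 0.21, and the highest was between VPS54 and AT4G19510. These libraries share lines, temperatures and depth, and the correlations are descriptive. Of other loci, AT4G19500, with the lowest elf4-2 minus Col-0 difference of mean log2(CPM + 0.5) among the 10, was most like AT5G48620 (r = 0.82), and AT5G58950 was also close (0.76). AT4G24420, with the highest such difference, was most like AT5G25450 (0.91), AT4G38060 (0.85) and AT3G49790 (0.85).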

How the data were processed

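The deposited values of 38 QuantSeq 3' FWD libraries are raw counts per gene locus. The submitters' processing notes name STAR and TAIR10, and no label names the counter. Rows naming no gene (2.11 to 4.90% without a feature, 0.0865 to 0.151% ambiguous, plus reads not uniquely aligned) were left out. Of 32833 loci, 99.1% were found in a TAIR10.1 gene table, used for symbols. Loci reaching 1 CPM in 3 or more libraries entered edgeR 4.0.16 (R 4.3.3; TMM, quasi-likelihood, Benjamini-Hochberg over all loci tested), with line, temperature and the 4 title number prefixes in the model. DESeq2 1.42.0, RLE factors, no filter, no prefix term and leaving out libraries were alternatives, and the tests were checked on simulated data. Named were the 10 loci, ELF3, ELF4, called list genes and called loci of the interval; other loci were named after their values were seen. The members and lists were chosen with earlier results of these data known. The 25 ChIP peak lists were not used here. No libraries held identical counts. Some results by these rules are not reported here.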

Additional observations from a re-analysis of the deposited data

How the results depend on the processing

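The 10 loci had 121 values in the alternatives of the cross against ELF3-ox. None was called, the log2 differences lay between -0.92 and 1.28, and the lowest adjusted p was 0.238. The number of all loci called in that comparison depended on the setting: 5 as reported, 29 with DESeq2, 0 without the title prefix term, 20 without both libraries low in root markers, 8 with all 38 libraries, 84 within title prefix 177, and 0 to 5 when each library of the cross or ELF3-ox was left out. Leaving out 1 library of the cross leaves a lone sample, assumed to vary like the other groups. Among the 13 other lines, 291 loci were called as reported, 1360 with DESeq2, 868 without the title prefix term and 752 without both libraries low in root markers, and AT4G20690 was called with DESeq2 (adjusted p = 0.00514). Calls at 27 °C against 22 °C numbered 5267 to 7881 in the alternatives, within 1.5 times of 6725. Loci of the interval with both elf4-2 libraries outside all others numbered 23 to 30 in the alternatives, which were chosen after the data were seen. The cause of these shifts was not tested. With 2 libraries of the cross, the widest of the 10 intervals was that of AT4G20480, -0.72 to 1.74 on the log2 scale. No paired analysis was possible because the labels give no replicate numbers to pair by; the fit within title prefix 177 had 1 library of the cross and 1 of ELF3-ox at each of 22 and 27 °C, with temperature as a term.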

Other observations

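Within the same interval of chromosome 4, a short run of loci sorted the lines in another way. This was noticed in the plotted values and is given as values, with no test. At AT4G25290, AT4G25315, AT4G25340 (FKBP53, named as an FK506-binding protein) and AT4G25370, all 7 libraries of elf4-2, ELF4-ox and Col-0 lay below all 31 other libraries. These were the only loci of that kind among the 587 tested in the interval, the 2404 on the rest of chromosome 4 and the 16472 on the other nuclear chromosomes, they lie within 10 consecutive loci, and no locus showed the reverse order. AT4G25370 had 43.9 and 47.3 CPM in elf4-2, 53.2 and 63.5 CPM in ELF4-ox and 49.8 to 66.1 CPM in Col-0. The cross elf4-2 X ELF3-ox had 182 and 169 CPM, and the other 29 libraries had 109 to 240 CPM. FKBP53 had 65.5 and 40.8 CPM in elf4-2, 37.4 and 42.3 CPM in ELF4-ox and 52.4 to 60.1 CPM in Col-0. In the cross FKBP53 had 129 and 111 CPM, within the 105 to 327 CPM of the other 29 libraries. The cross therefore had neither the elf4-2 level at the 10 loci nor the low level that elf4-2 shared with Col-0 here.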
